A study of Mus musculus with 8 samples.

Results

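Maps of histone H3 acetylated at lysine 27 (H3K27ac) were compared between depolarised and silenced mouse cortical neuron cultures, titled CTX. The comparison used 4 of the 8 libraries of the series, 2 from KCl-treated and 2 from unstimulated CTX cultures, chosen by their titles. The 4 libraries titled MGE served only as libraries that took no part in choosing regions. All cultures were primary neurons from C57/BL6 mouse embryos, given as embryonic day 14 in the CTX titles and day 16 in the source field. On day 6 in vitro the CTX and MGE groups were all silenced overnight with tetrodotoxin at 1 µM and D-AP5 at 100 µM. Tetrodotoxin blocks sodium channels and D-AP5 blocks NMDA receptors. On day 7 the KCl groups of both cultures received 55 mM KCl for 2 h and the unstimulated groups did not. The unstimulated groups are therefore a silenced state and not spontaneous activity. Neurons were fixed with 1% formaldehyde and chromatin was precipitated with the antibody ab4729. The labels do not say how many embryos were pooled or what was kept separate between replicates. Every p-value below therefore rests on the spread among these 4 libraries, some of which may be technical.

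Raised extracellular KCl depolarises the membrane and opens voltage-gated calcium channels. Calcium then acts through calmodulin-dependent kinases, calcineurin and the MAP kinase cascade on factors such as CREB, SRF and MEF2, which switch on immediate early genes. Many of these genes encode transcription factors, among them FOS, NPAS4 and the NR4A nuclear receptors, that act on later effector genes. H3K27ac is deposited by CBP and p300 and marks active promoters and enhancers, so its extent along a locus is often used to map regulatory elements in use.

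Each library had 1 list of broad H3K27ac peaks on the mouse build mm10. The KCl lists held 45055 and 66823 peaks on chromosomes 1 to 19 and X, and the unstimulated lists 41537 and 64874. They covered 28.45 and 44.7 Mb with KCl and 23.5 and 42.9 Mb without, so replicate 1 was the smaller list in both groups. Read depth is unknown, and a longer list may only be a deeper library. Every list was therefore cut to the called bases of the smallest, 23.5 Mb, by keeping the peaks with the highest −log10 p. That kept 73.9% and 36.3% of the KCl peaks and 100% and 39.9% of the unstimulated peaks. The weakest peak kept had a −log10 p of 4.71 and 8.20 with KCl and of 3.37 and 7.02 without, so unstimulated library 1 entered with its weakest peaks and the others did not.

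A gained region was defined as a run of at least 2 adjacent 500 bp bins, each at least 50% inside kept peaks in both KCl libraries and in neither unstimulated library. A lost region is the reverse, and a constant region was called in all 4 libraries. The words describe membership of the lists, and a region missing from a list may still be acetylated below the caller's threshold. In whole cultures, fewer cells of a type and less acetylation per cell cannot be told apart.

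Printed below are promoters of the early regulators Fos, Nr4a1 and Atf3, the late effector Gpr3, and Cry1, which belongs to neither group. The promoter sequences belong to genes whose starts lay in or near a gained region. They are the 250 bases upstream of the listed transcript start, 5′ to 3′ on the strand of the gene, from RefSeq on GRCm38.p6, the assembly behind mm10. Capitals mark TGACG or its reverse complement CGTCA, the core of the cAMP response element bound by CREB and its relatives. For Fos, Atf3, Gpr3 and Cry1 the whole printed stretch lay inside the gained region, whereas the Nr4a1 stretch lay outside its gained region, which ended 346 bp before the listed start.
Fos, chr12:85473640-85473889, plus strand: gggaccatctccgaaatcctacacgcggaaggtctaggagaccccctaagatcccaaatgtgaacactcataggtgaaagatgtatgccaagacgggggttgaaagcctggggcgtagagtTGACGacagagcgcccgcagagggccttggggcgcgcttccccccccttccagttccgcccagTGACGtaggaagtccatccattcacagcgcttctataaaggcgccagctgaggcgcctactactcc
Nr4a1, chr15:101266596-101266845, plus strand: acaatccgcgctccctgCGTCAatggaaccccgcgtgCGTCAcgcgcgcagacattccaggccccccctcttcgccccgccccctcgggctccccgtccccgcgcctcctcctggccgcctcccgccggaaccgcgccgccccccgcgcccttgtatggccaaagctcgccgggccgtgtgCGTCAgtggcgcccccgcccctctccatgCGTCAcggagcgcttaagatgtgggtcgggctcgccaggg
Atf3, chr1:191183334-191183583, minus strand: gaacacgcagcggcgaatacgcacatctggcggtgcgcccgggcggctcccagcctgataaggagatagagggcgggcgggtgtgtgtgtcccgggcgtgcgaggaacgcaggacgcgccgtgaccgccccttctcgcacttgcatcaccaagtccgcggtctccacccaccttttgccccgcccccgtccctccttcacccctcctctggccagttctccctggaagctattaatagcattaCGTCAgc
Gpr3, chr4:133212537-133212786, minus strand: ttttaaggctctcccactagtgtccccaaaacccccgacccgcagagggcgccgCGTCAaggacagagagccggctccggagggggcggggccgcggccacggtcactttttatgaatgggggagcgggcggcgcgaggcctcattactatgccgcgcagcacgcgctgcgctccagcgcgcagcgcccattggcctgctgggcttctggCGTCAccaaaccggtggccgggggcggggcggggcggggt
Cry1, chr10:85185055-85185304, minus strand: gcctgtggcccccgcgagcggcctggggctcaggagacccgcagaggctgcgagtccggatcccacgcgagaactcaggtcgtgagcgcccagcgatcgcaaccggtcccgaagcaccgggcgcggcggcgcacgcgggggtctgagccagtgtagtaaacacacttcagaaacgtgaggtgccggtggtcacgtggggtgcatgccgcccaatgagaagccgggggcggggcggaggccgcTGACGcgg
The Nr4a1 stretch held 4 such cores, those of Fos and Gpr3 held 2 each, and those of Atf3 and Cry1 held 1 each. These stretches are examples that all held the core, so they do not show how common it is. Of the 236 listed promoters within 1 kb of a gained region, 40.3% held TGACG on either strand, against 29.9% of 4461 promoters near constant regions and 20.4% of all 21044 listed promoters. The full palindrome TGACGTCA, which contains TGACG, was in 5.93% of promoters near gained regions, 3.16% near constant regions and 1.94% of all. The AP-1 motif TGANTCA stood at 3.81%, 3.32% and 6.17% in the same order, the Egr motif GCGTGGGCG at 2.54%, 1.34% and 0.727%, and the CArG box bound by SRF at 0.847%, 0.941% and 1.40%. Only 16 listed promoters lay near a lost region, and none of them held TGACG. The core TGACG was added to the motifs after the values had been seen. A match describes the letters only, base composition differs between these promoter sets, and no test was run.

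Before the results, the lists were read against cell type markers. None of 15 pan-neuronal marker genes was without kept peaks in all 4 libraries, and Neurod6, a cortical glutamatergic factor, carried 2.50 and 2.16 kb of called length with KCl and 2.52 and 2.28 kb without. Slc17a7, the vesicular glutamate transporter of mature cortical neurons, was listed at 0 in all 4 libraries, as was Eomes, a factor of intermediate progenitors. GABAergic markers were also present: Gad1 had 1.98 and 2.17 kb with KCl and 2.11 and 3.49 kb without, whereas Lhx6, Nkx2-1 and Vip were at 0 throughout. Of 12 microglial markers, 10 were at 0 in every library, and the list summed to between 0 and 0.613 kb. Astrocyte markers summed to between 20.1 and 23.1 kb with KCl and between 19.2 and 20.9 kb without, and oligodendrocyte lineage markers to between 18.8 and 19.5 kb and between 18.4 and 21.6 kb. The cultures thus held signal at glial genes besides neuronal ones.

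With every list cut to the same called bases, gained and lost regions were nearly equal in number. Equal called bases push the 2 classes towards balance, so the near balance is not read as an effect of depolarisation. There were 549 gained and 536 lost regions beside 6173 constant ones, and gained regions made up 50.6% of those that differed. Of 79474 bins called in at least 1 library, 6.73% were called in both KCl libraries only, 5.8% in both unstimulated libraries only and 29.0% in all 4. The 2 KCl libraries shared 60.8% of the bins called in either, and the 2 unstimulated libraries 51.9%. Pairs across treatments shared between 43.2% and 54.5%, so KCl library 2 and unstimulated library 2 overlapped more than the unstimulated pair did. A two-sided exact test of 2 against 2 libraries cannot go below p = 0.333, so single regions were not tested. With the lists as deposited there were 386 gained and 231 lost regions, and without unstimulated library 1 there were 901 and 2139. Leaving out any 1 library, which leaves fewer lists that must agree, gave between 901 and 1546 gained and between 760 and 2139 lost regions. Bins missing from the trimmed lists were often present in the untrimmed ones: 281 gained regions touched a deposited peak in 1 unstimulated library and 176 in both, and 168 lost regions touched one in 1 KCl library and 312 in both.

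Gained regions stood closer to gene ends than lost regions. Of the gained regions, 37.9% were within 2 kb of either end of a protein-coding gene, against 5.60% of the lost and 60.3% of the constant regions. Outside genes lay 35.3% of lost regions up to 100 kb from a gene and 18.5% farther away, against 15.8% and 9.29% of gained regions. Inside genes, beyond 2 kb of their ends, the shares were 37.0% and 40.7%. A listed transcript start lay inside or within 1 kb of 34.6% of gained and 2.80% of lost regions. A constant bin bordered 11.8% of gained and 3.54% of lost regions. The share of gained regions at gene ends was 28.2% with the lists as deposited and 55.5% without unstimulated library 2, and that of lost regions was 3.90% and 6.09%. No test over libraries was possible for these shares.

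**Figure D1:**
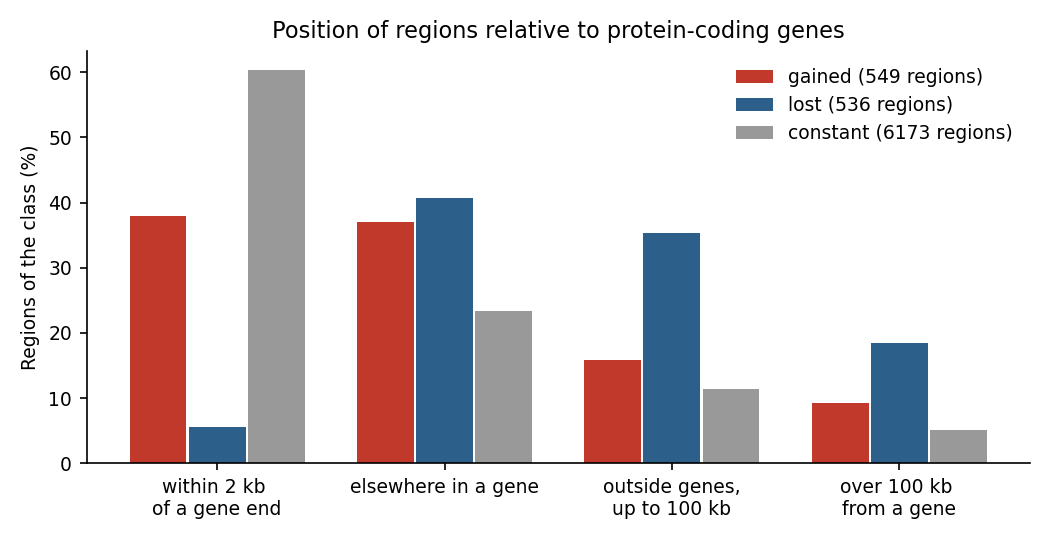
Share of gained, lost and constant regions (y axis, % of the regions of each class) in 4 positions relative to protein-coding genes (x axis), with the number of regions in the key. Gained regions stood at 37.9% within 2 kb of a gene end and lost regions at 5.60%.

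Gained regions were assigned to 487 protein-coding genes, 3.44% of the 14177 genes with a kept peak in any CTX library, and lost regions to 407, or 2.87%. A region went to the gene whose span was closest to its midpoint, within 100 kb. Distances from a gene are measured from that midpoint, and those from a listed start from the region's nearer edge. Of 105 activity-regulated genes in 5 lists, 18 (17.1%) had a gained region and 4 (3.81%) a lost one. Among the 33 early transcription regulators the numbers were 8 and 2. The 8 were Fos, Atf3, Crem, Npas4, Nr4a1, Nr4a2, Myc and Maml3. When runs of a single bin counted, 23 of the 33 (69.7%) had a gained and 6 (18.2%) a lost region, against 24.2% and 16.4% of the 14177 genes under that setting. These lists were drawn up with an account of the same libraries at hand, so their counts describe these libraries and are no independent evidence.

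Fos, which encodes a subunit of the AP-1 transcription factor, had the most gained bins of any gene, 7 in 2 regions. Kept peaks assigned to Fos spanned 8.22 and 9.24 kb in the KCl libraries and 3.29 and 2.83 kb in the unstimulated libraries. Both KCl libraries thus lay well above both unstimulated ones, at 2.85 times their mean. The first gained region, chr12:85472501-85474500, contained the Fos start. It held 1626 and 1761 bp of kept peaks with KCl and 0 without, although the untrimmed list of unstimulated library 2 had a peak there with a fold enrichment of 3.19. The second, chr12:85486501-85488000, had its midpoint 9.98 kb beyond the gene, with 923 and 1306 bp against 88 and 204 bp. On the log2(called bp + 500) scale the difference was 1.37 with a standard error of 0.16 (limma, Benjamini-Hochberg adjusted p = 0.144 over 7452 genes). That difference turned to −0.37 when the peaks to keep were ranked by fold enrichment in place of −log10 p. The same ranking gave log2 differences below 0 for Npas4 (−0.62), Pde10a (−0.43), Spry2 (−0.26), Myc (−0.13) and Nr4a1 (−0.01), whose values below come from the ranking by −log10 p.

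The same gene-wise test placed no gene past an adjusted p of 0.05 in either direction, 0% of the 7452 genes tested. Unadjusted p-values under 0.05 numbered 658 (8.83%) for more called length with KCl and 568 (7.62%) for less. The smallest adjusted p was 0.144, shared by 88 genes. Restricting the test to genes with a mean of at least 3000 bp called 67 genes longer and 138 shorter. Leaving out KCl library 1 called 60 shorter and none longer. Differences of single genes below are therefore given as values and by whether the libraries overlapped. Both KCl libraries lay above both unstimulated ones at 31.8% of tested genes and below both at 18.7%.

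Of the 12 AP-1 and bZIP genes, 3 had a gained region, Fos, Atf3 and Crem, and none had a lost one. Atf3, a stress-inducible repressor and activator of the ATF family, had 2.69 and 2.82 kb with KCl and 0.534 and 0.923 kb without. Its 3 gained bins, at chr1:191183001-191184500, spanned the promoter printed above. Crem, whose inducible isoforms repress cAMP-driven transcription, had 3.28 and 3.34 kb against 2.06 and 1.57 kb. Neither gene overlapped between treatments, which having a gained region favours. Fosb, a paralog of Fos, had 1.32 and 3.43 kb with KCl and 0.646 and 1.31 kb without, so KCl library 1 lay just above unstimulated library 2. Of the 8 tested bZIP genes, 7 had both KCl libraries above both unstimulated ones, none had both below, and the median log2 difference was 0.81 against 0.08 over all tested genes. The exception was Jun, with 2.43 and 2.51 kb against 2.25 and 3.13 kb. Of the 4 that were under the filter of the test, Junb overlapped between treatments, with 1.29 and 0 kb against 0.262 and 0.276 kb, Fosl2 and Maff were higher in both KCl libraries, and Fosl1 was at 0 in all 4.

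Nr4a1 and Nr4a2 encode orphan nuclear receptors induced early by activity. Nr4a1 carried 5.30 and 5.83 kb with KCl and 1.87 and 2.39 kb without, with a gained region of 851 and 969 bp against 0 at chr15:101265501-101266500. Nr4a2 had 2.60 and 3.50 kb against 1.56 and 0.752 kb, and its gained region of 4 bins lay 7503 bp from the listed start. Their paralog Nr4a3 had 3.25 and 3.05 kb against 1.10 and 1.17 kb and no gained region. All 3 receptors thus had more called length in each KCl library than in either unstimulated one.

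Npas4, a neuron-specific bHLH-PAS factor that responds to calcium entry, had 3.43 and 4.12 kb with KCl and 1.86 and 2.35 kb without. Its gained region, chr19:4992001-4993000, lay inside the annotated span, with 853 and 886 bp against 0. Myc, a growth-related bHLH factor, had 4.57 and 5.25 kb against 2.81 and 3.11 kb, and its gained region lay 88.6 kb outside the gene. Maml3, a Notch coactivator, had both a gained and a lost region, and its total of 15.2 and 13.7 kb overlapped that of the unstimulated libraries, 16.2 and 14.9 kb. Among the zinc finger factors Egr4 stood the other way, with 0.340 and 0 kb with KCl against 0.824 and 1.16 kb without and a lost region 4.91 kb from the gene. Egr1 was under the filter of the test, at 0.939 and 1.69 kb against 0.366 and 0.563 kb. Over the 15 tested members of this group of early regulators, 10 had both KCl libraries above, 1 had both below, Ier5, and the median log2 difference was 0.64.

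**Figure D2:**
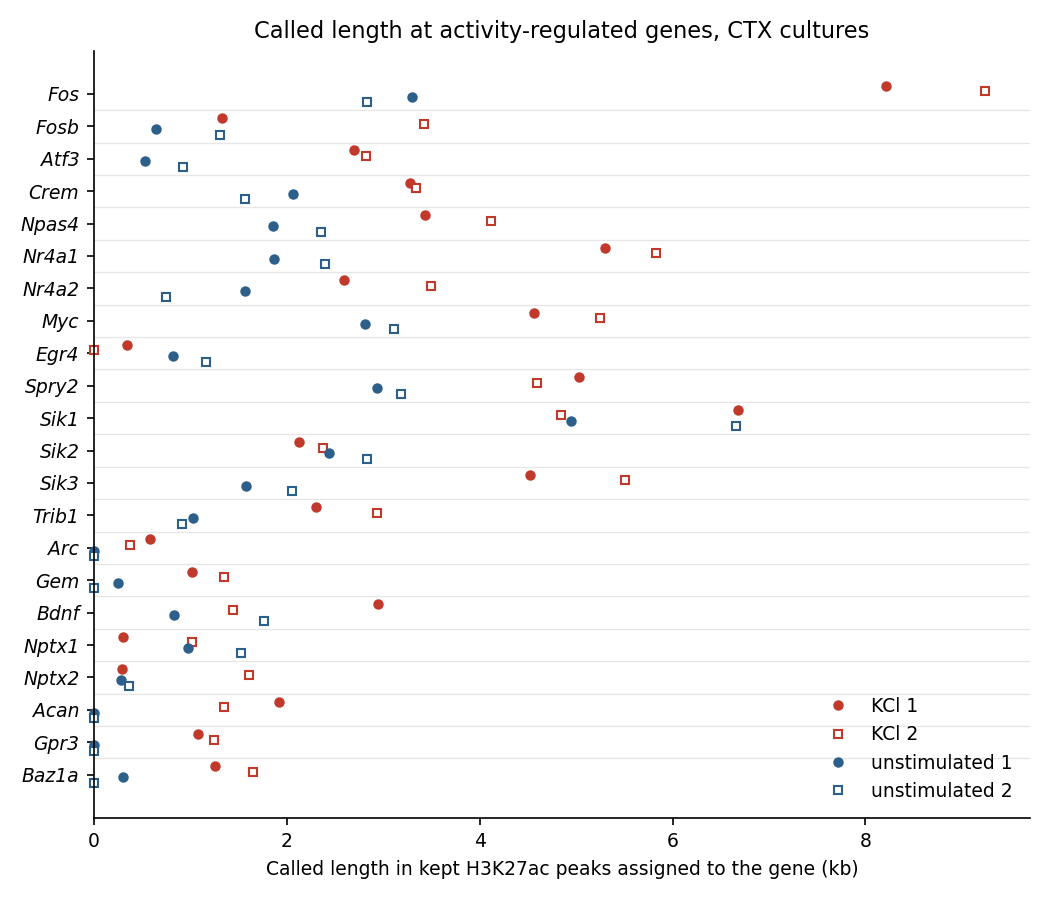
Called length (x axis, kb of kept H3K27ac peaks assigned to the gene) for 22 activity-regulated genes in each of the 4 CTX libraries; filled circles are replicate 1 and open squares replicate 2. At Fos the KCl libraries stood at 8.22 and 9.24 kb and the unstimulated libraries at 3.29 and 2.83 kb, whereas Sik1 and Bdnf overlapped.

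Genes that restrain activity signalling also stood among those with gained regions. Of 20 feedback genes, 6 (30%) had a gained region, Spry2, Sik1, Sik3, Pde4d, Pde10a and Trib1, and 1 (5%), Sik2, a lost one. Over all genes with a kept peak the shares were 3.44% and 2.87%. Sik3, a salt-inducible kinase that holds CREB coactivators in the cytoplasm, had 4.52 and 5.51 kb with KCl and 1.58 and 2.06 kb without. Trib1, a pseudokinase, had 2.30 and 2.93 kb against 1.02 and 0.914 kb, with 4 gained bins at the start of its span. Both genes kept the treatments apart, which having a gained region favours. Spry2, an inhibitor of receptor tyrosine kinase signalling, had 5.03 and 4.60 kb against 2.94 and 3.19 kb, and the 250 bases before its listed start held none of the motifs searched. Pde4d, a cAMP phosphodiesterase, had the longest coverage of the group, 19.1 and 20.4 kb against 13.9 and 13.8 kb. Sik1 had a gained region of 867 and 860 bp against 0, but its totals of 6.67 and 4.84 kb overlapped the unstimulated 4.95 and 6.66 kb. Over the 18 tested feedback genes, 11 (61.1%) had both KCl libraries above and 1 (5.56%) had both below. Over all tested genes these shares were 31.8% and 18.7%. The median log2 difference of the feedback genes was 0.44. Rcan1, a calcineurin inhibitor without a gained region, had 2.88 and 3.11 kb against 1.65 and 1.51 kb.

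Effector genes act at synapses, in the matrix or in secretion downstream of the early factors. Of 19 early effectors only Gem, a GTPase that limits calcium channel activity, had a gained region: its called length was 1.01 and 1.35 kb with KCl and 0.246 and 0 kb without. Arc, a postsynaptic protein that drives AMPA receptor endocytosis, had 0.579 and 0.374 kb with KCl and 0 in both unstimulated libraries, too short for a region. Of 33 late effectors 3 had a gained region, Acan, Gpr3 and Baz1a, and 1, Nptx1, a lost one. Acan, the chondroitin sulphate proteoglycan of perineuronal nets, had 1.92 and 1.35 kb and was listed at 0 in both unstimulated libraries; its region lay 59.2 kb outside the gene. Gpr3, a constitutively active receptor that raises cAMP, had 1.08 and 1.25 kb against 0, at its own promoter. Baz1a, a chromatin remodelling subunit, had 1.25 and 1.65 kb against 0.300 and 0 kb. Bdnf, the activity-regulated neurotrophin, had 2.95 and 1.44 kb against 0.832 and 1.77 kb, so the treatments overlapped. The pentraxins Nptx1 and Nptx2, which cluster AMPA receptors, also overlapped, with 0.301 and 1.01 kb against 0.971 and 1.52 kb, and 0.289 and 1.61 kb against 0.280 and 0.359 kb. Over all tested genes 31.8% had both KCl libraries above and 18.7% had both below. For the early effectors 5 of 10 tested genes had both KCl libraries above and 2 below. For the late effectors 4 of 8 tested genes were above and none below. The other 25 late effectors were under the filter of the test, and of these 8 had both KCl libraries above, 3 had both below, 11 overlapped and 3 were at 0 throughout. The 3 below were Penk, the precursor of enkephalins, at 0 in both KCl libraries against 1.13 and 1.54 kb, Inhba, an activin subunit, at 0 and 0.729 kb against 1.09 and 0.878 kb, and Pdyn, the precursor of dynorphins, at 0.674 and 0 kb against 0.936 and 1.06 kb.

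The 42 genes of calcium and CREB signalling that stand between depolarisation and transcription showed no common direction. Genes with a gained region included Cacna1a, Nfatc2, Mef2c and Hdac4, and regions were lost at 4, Cacna1c, Calm2, Mef2a and Mef2d. Cacna1a, the pore of P/Q-type calcium channels, had 5.61 and 5.92 kb with KCl and 2.09 and 3.01 kb without. Crebbp, which encodes the acetyltransferase CBP, had 3.11 and 3.82 kb against 0.528 and 1.69 kb, and its relative Ep300 overlapped at 2.29 and 2.19 kb against 2.94 and 1.56 kb. The MEF2 genes stood apart from each other: Mef2c had 16.3 and 14.2 kb against 9.68 and 8.73 kb, whereas Mef2a had 2.19 and 2.88 kb against 4.53 and 4.22 kb. Calm2, 1 of the calmodulin genes, had 2.35 and 2.18 kb against 4.46 and 4.69 kb. Of the 35 tested genes, 12 (34.3%) had both KCl libraries above and 7 (20%) below, with a median log2 difference of 0.16. These shares were close to the 31.8% and 18.7% of all tested genes.

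Outside these lists, the genes with most gained bins after Fos included Cry1, Tenm3 and Shc4, with 5 each. Cry1, a repressor of the circadian clock, had 3.08 and 2.87 kb with KCl and 0.668 and 0 kb without, and its gained region, chr10:85183501-85186000, spanned the start. Shc4, a signalling adaptor, had 4.50 and 4.83 kb against 2.80 and 2.82 kb. Tenm3, a teneurin adhesion molecule, had 8.48 and 8.05 kb against 5.84 and 4.80 kb. The treatments did not overlap at any of the 3, which their choice by gained bins favours. Both KCl libraries also lay above both unstimulated ones at 31.8% of all tested genes. The log2 difference at Shc4 was −0.0017 without unstimulated library 1, and that at Tenm3 was −0.06 with peaks ranked by fold. Another 16 genes had 4 gained bins each, and ties were settled by the difference in called length. Among them were Cdc42se2, Nt5dc3, Jcad, Mpp5, Sorcs1 and Gm4868, and Mpp5, a cell polarity scaffold, had 2.20 and 2.45 kb against 0 in both unstimulated libraries. By the smallest limma p for more called length, the genes were Nppc, Gdf10, Ppfia2, Vkorc1l1 and Fos, all at an adjusted p of 0.144. Nppc, which encodes C-type natriuretic peptide, had 2.40 and 2.65 kb against 0.652 and 0.521 kb. Ppfia2, a liprin of the presynaptic active zone, had 9.58 and 8.54 kb against 3.14 and 2.59 kb.

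The 8 genes named for most lost bins were Mgat5b, Gm1043, Ift122, Igsf21, Kcnab1, Frmd4a, Dglucy and Kcna5, of which the first 3 had 6 lost bins and the others 5, as did 5 genes not named. Mgat5b, a glycosyltransferase of brain, had 1.44 and 1.08 kb with KCl and 6.01 and 5.71 kb without, with lost regions 30.6 and 43.1 kb beyond the gene. Kcnab1, an auxiliary subunit of voltage-gated potassium channels, had 1.92 and 0.947 kb against 8.77 and 5.64 kb, and both of its lost regions were intragenic. Kcna5, a potassium channel pore, had 1.37 and 0.545 kb against 4.62 and 4.19 kb. At all 3 genes the KCl libraries lay below both unstimulated ones, which their choice by lost bins favours. Over all tested genes 18.7% lay below in this way. Igsf21, a synaptic adhesion molecule, had 5.74 and 7.19 kb against 12.3 and 12.3 kb, and Frmd4a 10.8 and 10.5 kb against 17.2 and 13.8 kb. By the smallest limma p for less called length, the genes were Gjb5, Fcnb, Kcng2, St6galnac3 and Mgat5b, again at an adjusted p of 0.144. St6galnac3, a sialyltransferase, had 0.959 and 0.801 kb against 10.1 and 6.38 kb.

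Neuronal identity genes held both gained and lost regions. Of 22 cortical glutamatergic genes 3 (13.6%) had a gained region, Bcl11b, Foxp2 and Mef2c, and 2 (9.09%) a lost one, Bcl11b and Sox5, against 3.44% and 2.87% of all genes. Of 15 pan-neuronal genes Gap43 had a gained and Rbfox3 a lost region, and of 22 GABAergic genes none had a gained and 2, Dlx2 and Sox6, a lost one. Rbfox3, which encodes the neuronal nuclear antigen NeuN, had 5.16 and 2.18 kb with KCl and 10.1 and 8.57 kb without, and a lost region inside the gene. Of 14 tested pan-neuronal genes, 7 had both KCl libraries below and 2 above, against 18.7% and 31.8% of all tested genes. Summed over the 15 genes, called length was between 43.4 and 48.7 kb with KCl and between 53.9 and 57.5 kb without. Among 12 tested GABAergic genes, 6 were below in both KCl libraries and none above, and the list summed to between 51.9 and 52.3 kb against between 60.6 and 60.8 kb. Dlx2, a homeobox factor of the GABAergic lineage, had 5.53 and 5.55 kb against 8.78 and 7.55 kb. Cortical glutamatergic genes overlapped in sum, between 75.7 and 78.4 kb against between 64.1 and 76.1 kb, with 4 of 17 above and 3 below. Of 38 tested synaptic genes 9 (23.7%) were above and 9 (23.7%) below. Among the latter was Gria1, an AMPA receptor subunit, at 2.49 and 2.50 kb against 6.42 and 5.47 kb. Endothelial and mural markers summed to between 5.96 and 5.97 kb against between 9.22 and 10.7 kb, and Flt1, an endothelial receptor, was at 0 in both KCl libraries against 2.12 and 2.21 kb. Progenitor markers summed to between 16.1 and 16.8 kb against between 13.4 and 14.5 kb. Housekeeping genes summed to between 26.8 and 27.7 kb against between 21.0 and 25.5 kb, so both sums were higher in each KCl library. Much of the progenitor difference came from Vim, at 1.84 and 2.93 kb against 0.410 and 0 kb. Of the 6 tested progenitor genes 2 were above and 2, Hes1 and Sox2, below. The part that any difference in cell make-up played in the gained and lost regions was not tested.

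**Figure D3:**
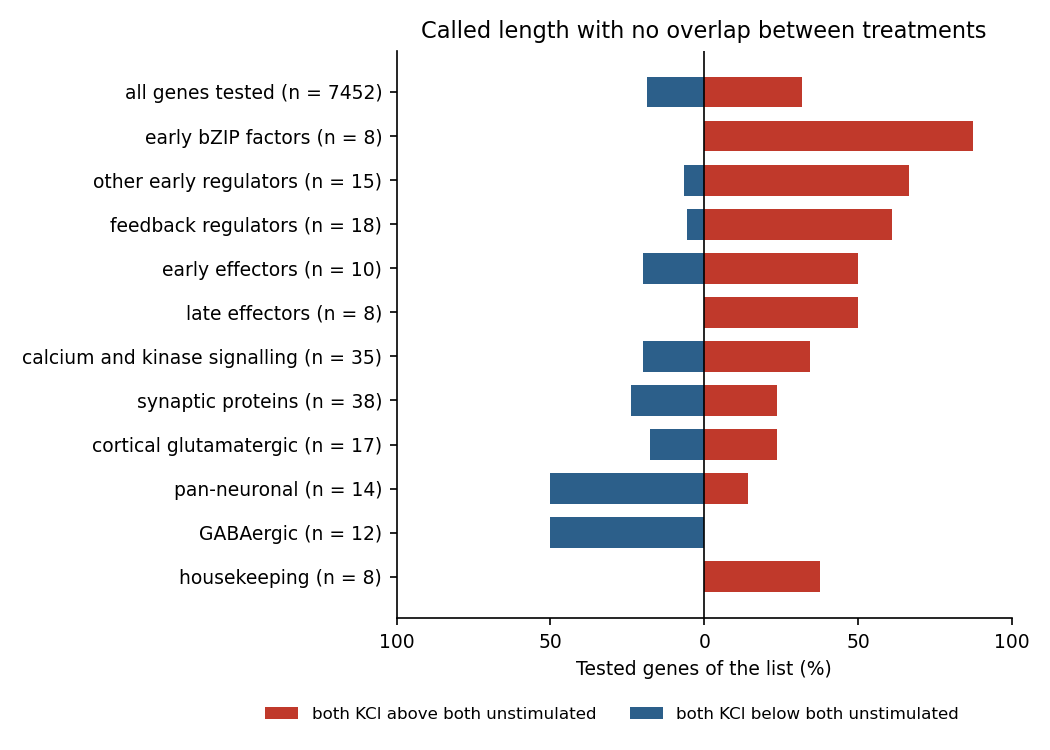
Share of the tested genes of each list (x axis, %) whose called length was higher in both KCl libraries than in both unstimulated ones (right) or lower (left), with the number of genes tested beside each name. Over all 7452 genes the shares were 31.8% and 18.7%; for the early bZIP genes 7 of 8 were higher, and for the GABAergic genes 6 of 12 were lower.

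Fold enrichment, the value over background that the authors' caller gave each peak, was compared at 15856 regions with a kept peak in all 4 libraries. A region's value in a library was the base-weighted mean over its kept peaks there, so it need not follow the height of a summit. On quantile-normalised log2 values limma placed 1 region (0.00631%) higher and 12 regions (0.0757%) lower with KCl at an adjusted p under 0.05. Unadjusted p-values under 0.05 numbered 1049 higher and 1069 lower. The higher region lay 8.48 kb from Ccdc9, with folds of 5.33 and 5.89 with KCl and 2.60 and 3.21 without (log2 difference 0.93, SE 0.12, limma adjusted p = 0.0156). The 12 lower regions belonged to Pde4a, Fndc4, Npas4, Fcgr4, Rheb, Wdr5, Hook2, Nop53, Tmem248, Hes7 and, with 2 regions, Pde10a. None of these calls was made when the lists were used as deposited. Leaving out unstimulated library 2 raised the counts to 87 higher and 131 lower, and leaving out KCl library 1 reduced both to 0. Without unstimulated library 1 there were 0 higher and 7 lower regions, and without KCl library 2 there were 7 and 6.

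At Npas4 the region chr19:4993378-4995165 had folds of 2.09 and 1.99 with KCl and 3.19 and 3.36 without (log2 difference −0.70, SE 0.08, limma adjusted p = 0.0107). In the 5 kb on each side of it, by contrast, 1535 and 1487 bp were called with KCl and 0 without. Its highest −log10 p was 7.52 and 12.5 with KCl and 9.10 and 15.6 without. Mean fold in this region was thus lower with KCl while called length around it was greater. Kept peaks inside the region spanned 778 and 1370 bp with KCl and 1400 and 1626 bp without. The highest fold of a kept peak assigned to Npas4 overlapped between treatments, at 3.41 and 3.84 against 3.63 and 4.42. Pde4a, another cAMP phosphodiesterase, had folds of 2.34 and 2.27 against 4.08 and 4.31, and 1510 and 1485 bp of flanking calls against 0 and 549 bp. Rheb, a GTPase upstream of mTOR, had folds of 2.40 and 2.56 against 3.92 and 4.50, and flanks of 1300 and 1452 bp against 940 and 1040 bp. Of the 12 lower regions, 11 had more flanking called length in both KCl libraries than in both unstimulated ones, Nop53 being the exception with no flanking calls. That held at 9% of all 15856 regions, and at 0 of the 1 higher region. Among regions with an unadjusted p under 0.05 the shares were 25.1% of the lower and 3.91% of the higher. Across all regions Pearson's r between the log2 differences in fold and in flanking length was −0.21, a description over regions that share the same 4 libraries. The flanking measure was chosen after the fold values had been seen. How the caller's background was set is not given in the sources used here, and its part in the lower folds was not tested.

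**Figure D4:**
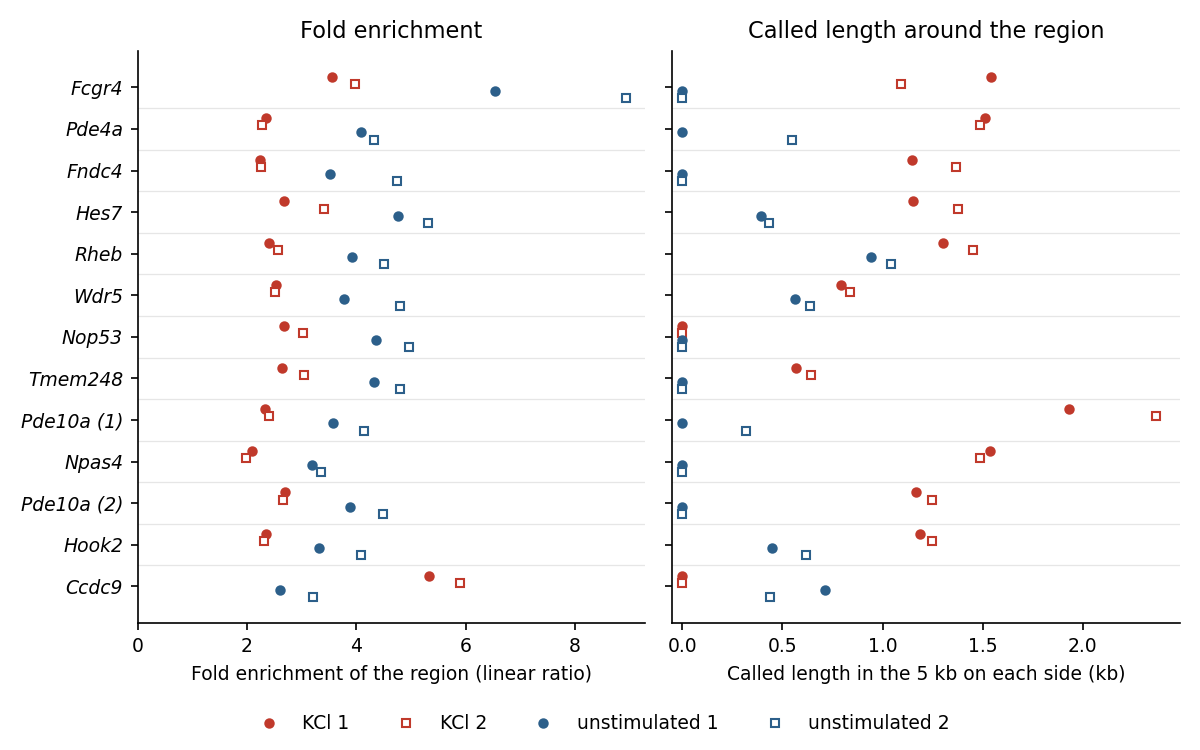
Fold enrichment (left, linear ratio) and called length in the 5 kb on each side (right, kb) in the 4 CTX libraries for the 13 regions past the threshold, named by their gene. In 11 of the 12 regions with lower fold, both KCl libraries had more flanking called length than both unstimulated ones.

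The regions chosen in CTX cultures were then read in the 4 MGE libraries, cut in the same way to 21.1 Mb each. CTX gained regions had 41.3% and 44.7% of their bases in kept peaks of the MGE KCl libraries and 18.2% and 16.4% in the unstimulated ones. CTX lost regions had 13.97% and 13.5% with KCl and 26.1% and 27.7% without. Constant regions were covered at 67.1% and 76.1% against 68.4% and 68.9%. Both classes therefore kept their direction in libraries that had no part in choosing them, and the 2 treatments did not overlap for either, whereas they overlapped at constant regions. The lowest two-sided exact p for such a comparison is again 0.333. Of the 549 gained regions 114 were at least 50% covered in both MGE KCl libraries and in neither unstimulated one, and none was the reverse. Of the 536 lost regions 34 were lost there too and 2 were gained, and of the 6173 constant regions 133 were gained and 98 lost. The 114 included regions of Atf3, Cry1, Npas4, Nr4a1, Trib1, Gpr3, Sik1, Sik3, Klf9 and Vegfa. The Fos promoter region had 904 and 1672 bp in the MGE KCl libraries and 0 in the unstimulated ones. Among the 34 were regions of Mgat5b, Mef2d, Egr4 and Cry2, which is a clock repressor like Cry1.

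**Figure D5:**
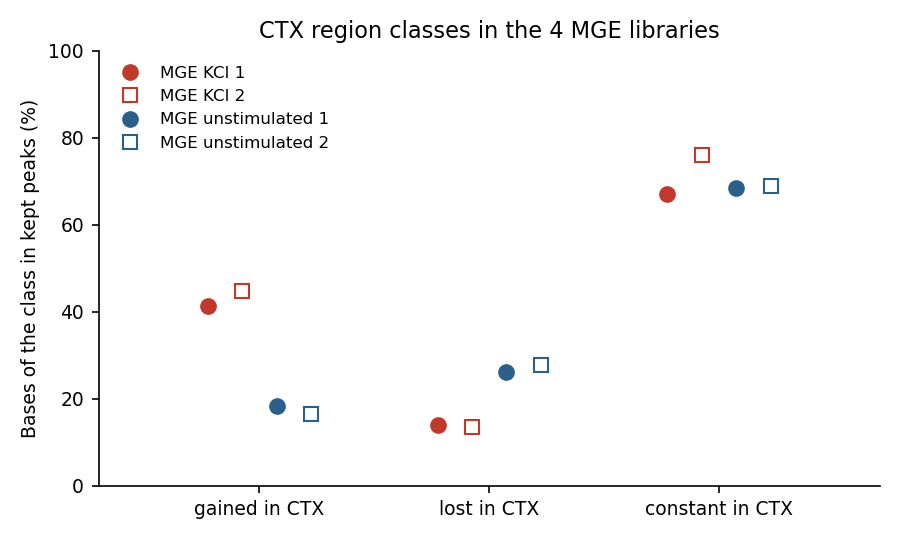
Share of the bases of CTX gained, lost and constant regions (y axis, %) that lay in kept peaks of each of the 4 MGE libraries. Gained regions stood at 41.3% and 44.7% with KCl against 18.2% and 16.4%, and lost regions at 13.97% and 13.5% against 26.1% and 27.7%.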

How the data were processed

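H3K27ac chromatin immunoprecipitation was sequenced (50 bp reads) in 2 KCl and 2 unstimulated CTX libraries, grouped by title. Per the submitters' processing notes, analysis used MACS3 3.0.0a7, Bowtie2 2.3.3, deepTools 3.4.3 and cutadapt 1.18, on the build mm10. Settings, control and duplicate handling were not given in the sources used here. Peaks were called per library. The authors deposited for each peak a fold enrichment, a linear ratio, and a −log10 p and −log10 q value. Read counts were not used here, so depth is unknown and no counting interval can be given.

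Peaks on chromosomes 1 to 19 and X were ranked by −log10 p, then fold, down to equal called bases. Bins of 500 bp were called at 50% coverage. Called length per gene was tested as log2(called bp + 500) for genes with a mean of at least 1000 bp, and fold enrichment as quantile-normalised log2 values, with limma 3.58.1 in R 4.3.3 (trend and robust, treatment only, Benjamini-Hochberg adjustment, threshold 0.05). The fits were tested on simulated data. Regions and called length went to the nearest of 21627 protein-coding gene spans up to 100 kb away, the shorter gene where spans overlapped, since starts were listed for 79.9% of genes. Alternatives covered the trimming, ranking, bins, runs, filters, pseudocount, normalisation, a replicate block and leaving out each library.

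The members and the 17 gene lists were chosen with earlier results of these data known. Named genes were the 12 with most gained and 8 with most lost bins (ties by the difference in mean called length, which left out 8 genes that also had 4 gained bins and 5 that also had 5 lost bins), the 5 with the smallest limma p per direction in each test, members of the 5 activity lists with a gained or lost region, and Fos, Fosb, Npas4, Nr4a1, Arc, Bdnf, Nptx2, Rbfox3 and Gad1. Other members of the lists were named as examples after their values were seen. Silent genes of other tissues summed to between 8.90 and 10.0 kb with KCl and between 7.77 and 10.5 kb without, with 11 of 18 at 0 throughout.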

Additional observations from a re-analysis of the deposited data

Results flagged for a closer look

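Gm4868 and Fcnb stood in opposite directions in the CTX and MGE cultures, in every library, and the difference between the cultures was not tested. Gm4868 had 1.60 and 2.52 kb of called length in the CTX KCl libraries and 0 in the unstimulated ones, a mean difference of 2056.5 bp, whereas the MGE libraries had 4.17 and 4.05 kb with KCl and 6.64 and 6.09 kb without. Fcnb, which encodes a ficolin, had 0.512 and 0.625 kb with KCl and 4.32 and 3.41 kb without in CTX cultures, a mean difference of −3296 bp. In MGE cultures it had 0.718 and 0.701 kb with KCl and 0 and 0.331 kb without. CTX and MGE lists were trimmed to different totals, so only the order within a culture can be read.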

How the results depend on the processing

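Regions gained and lost numbered 546 and 581 with the called bases of the smallest of all 8 lists, 532 and 571 with lists cut by another 50%, and 473 and 537 from a −log10 q of 5 (gained share 46.8%). They numbered 386 and 231 as deposited (62.6%), 329 and 360 ranked by fold, 1862 and 2595 for bins called at any overlap (41.8%), 220 and 93 at full overlap (70.3%), 120 and 88 in 1000 bp bins (57.7%), 4714 and 4004 in runs of at least 1 bin (54.1%), and 74 and 66 in runs of at least 3. Leaving out 1 library gave 901 to 1546 gained and 760 to 2139 lost regions, gained shares of 29.6% to 61.4%, and gene-end shares of 29.6% to 55.5% (gained) and 6.09% to 8.82% (lost). As deposited those gene-end shares were 28.2% and 3.90%. Activity genes with a gained or lost region numbered 53 and 19 in runs of at least 1 bin (50.5% and 18.1%, against 24.2% and 16.4% of all genes), 13 and 0 as deposited (12.4% and 0% against 2.20% and 1.16%), and 20 to 32 and 5 to 8 without 1 library (19.05% to 30.5% and 4.76% to 7.62%, against 5.08% to 8.93% and 4.04% to 10.0%). Early regulators numbered 23 and 6, 7 and 0, and 9 to 13 and 2 to 3 in the same order. Called length passed the limma test at 67 genes (longer) and 138 genes (shorter) with a mean of at least 3000 bp, where fewer genes were tested, at 0 and 0 to 60 without 1 library, and at none under the other alternatives. Fold enrichment passed at 0 higher and 0 lower regions as deposited, 6 and 11 from a −log10 q of 5, 7 and 15 with median centring, 13 and 16 without normalisation, and 0 to 87 and 0 to 131 without 1 library. With a replicate block the fold test gave 1 higher and 10 lower regions and the gene test none. The labels do not say that replicate numbers pair the libraries, and same-numbered libraries deviated together with a correlation of 0.0874 (fold) and 0.147 (called length). The log2 difference in called length changed sign when ranked by fold at Ccdc9 (0.12), Fos (−0.37), Gng4 (1.46), Myc (−0.13), Npas4 (−0.62), Nr4a1 (−0.0093), Papola (0.79), Pde10a (−0.43), Pde4a (−0.20), Rheb (−1.11), Sik2 (0.25), Spry2 (−0.26) and Tenm3 (−0.057). It changed as deposited at Maml3 (0.062), Sik1 (0.24) and Sik2 (0.35), and with genes up to 20 kb at Rhbg (−0.10) and Sik1 (0.66). Without 1 library it ranged from −0.37 to 0.082 at Ccdc9, from −0.18 to 0.0081 at Maml3, from −0.55 to 0.15 at Papola, from −0.0017 to 0.69 at Shc4, from −0.33 to 0.20 at Sik1 and from −0.25 to 0.0071 at Sik2. Except where its construction is named, the cause of a change was not tested. Depth is unknown, so how far it sets absence from a list was not tested. Of the other comparisons of single genes and regions, 621 kept their direction and side of the threshold, 51 lost a call and 30 passed a threshold they had missed.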

Other observations

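Among markers of cells other than mature neurons, Vim, an intermediate filament of progenitors and glia, had a gained region of 679 and 1000 bp at its start, with 88 and 0 bp in the unstimulated libraries. Its called length was 1.84 and 2.93 kb with KCl and 0.410 and 0 kb without, and the same region was gained in the MGE libraries. Sox9, an astrocyte and progenitor factor, had 3.51 and 3.91 kb against 1.78 and 2.23 kb, and Slc1a2, the main astrocyte glutamate transporter, 2.27 and 2.02 kb against 1.26 and 0.938 kb. Aqp4, the water channel of astrocyte endfeet, stood the other way, at 0 in both KCl libraries and at 1.39 and 0.733 kb without. Aqp4 was under the filter of the test. Over all tested genes 31.8% had both KCl libraries above and 18.7% had both below. Of the 7 tested astrocyte genes 3 (42.9%) had both above and 1 (14.3%) had both below. The 1 below was Gfap, an astrocyte filament gene, at 0.914 and 0.422 kb with KCl against 1.61 and 1.27 kb without. None of the tested genes passed the limma test after adjustment over all genes.

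Vegfa, an angiogenic factor induced by several signalling pathways, had a gained region of 4 bins near its start with 2000 and 1813 bp against 245 and 0 bp. Klf9, a Krüppel-like factor, had one of 3 bins with 1347 and 1483 bp against 0. Both were gained in the MGE libraries too, with 1647 and 1586 bp against 262 and 747 bp at Vegfa and 857 and 1259 bp against 0 and 237 bp at Klf9. These 2 genes were singled out after their values had been seen.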
